A study of Homo sapiens with 18 samples.

Results

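The genes of fatty acid synthesis and desaturation described here are FADS1, FADS2, SCD, FASN, ACACA, ACLY, ACSS2, ELOVL5, ELOVL6 and SREBF1, 10 of the 60252 genes in a deposited RNA-seq count table of MCF-10A cells. They were chosen by name, from a list of lipogenic genes, by matching gene symbols to the Ensembl identifiers of the table. The list was chosen with earlier results of these data known. MCF-10A is an immortalised, non-tumorigenic human mammary epithelial line. Every group was grown as 3D cultures in Matrigel, a basement membrane gel, for 8 days and carried a stably expressed retroviral PWZL construct. The construct was the empty vector (Control) or encoded 1 of SRSF2, SRSF4, SRSF6, SRSF9 and TRA2B, which are splicing factors of the SR and SR-like families. The groups with a factor are called SRSF2-OE, SRSF4-OE, SRSF6-OE, SRSF9-OE and TRA2B-OE after their labels. The study compared gene expression and splicing in each of these groups with Control. No label says whether a group was 1 clone or a pool of infected cells.

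Cells make fatty acids in the cytosol from acetyl-CoA. ACLY (ATP citrate lyase) and ACSS2 (acetyl-CoA synthetase) supply acetyl-CoA, ACACA (acetyl-CoA carboxylase) turns it into malonyl-CoA, and FASN (fatty acid synthase) builds palmitate from both. ELOVL6 lengthens saturated and monounsaturated chains and ELOVL5 polyunsaturated ones, SCD puts the first double bond into stearate and palmitate, and FADS2 and FADS1 insert further double bonds into polyunsaturated chains. SREBF1 encodes SREBP-1, a membrane-bound transcription factor that is released by proteolysis when lipid or sterol supply is low and activates most of these genes. Breast epithelium uses the pathway for membranes and, in lactation, for milk fat.

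The 18 samples form 14 libraries, because in 4 groups (TRA2B-OE, SRSF6-OE, SRSF4-OE, Control) replicates 1 and 2 carry the same library ID and barcode and were summed ("replicate 1-2"). These 4 groups thus have 2 libraries each, and SRSF2-OE and SRSF9-OE have 3 each. Library totals were 42959069 to 121601376 counts. The 4 summed libraries and the 10 others, whose descriptions hold a number in place of a library ID, are 2 label sets, and SRSF2-OE and SRSF9-OE occur in the second alone. The introduced factor checks the labels only in part. SRSF9 stood at 359 to 839 CPM (counts scaled to a common library total) in SRSF9-OE against 95.4 and 92.4 in Control, and SRSF4 at 187 and 168 CPM in SRSF4-OE against 95.5 and 71.4. SRSF6 overlapped Control in SRSF6-OE (417 and 283 against 399.9 and 239 CPM). SRSF2 in the library labelled SRSF2-OE replicate 1 (214 CPM) and TRA2B in that labelled TRA2B-OE replicate 3 (147 CPM) lay within the range of the other groups, so every direction given here is between libraries as labelled. Basal mammary keratins and their partners (6 of 6 markers tested) summed to 12063 to 28949 CPM over the libraries. Luminal epithelial markers (5 genes) summed to 246 and 290 CPM in Control and to 245 to 417 CPM in the other groups. ADIPOQ, the defining adipocyte marker, had 0 counts in all libraries, and the 5 adipocyte markers summed to 1.82 and 1.86 CPM in Control and to 0.677 to 15.9 CPM in the other groups. Fibroblast markers (5 genes) summed to 262 and 549 CPM in Control and 159 to 432 CPM in the others. Nearly all of this was COL1A1 and DCN, while COL1A2, PDGFRA and LUM reached at most 0.366, 0.436 and 0.260 CPM. Leukocyte markers (3 genes) summed to 0.313 to 1.31 CPM, and the 2 of 3 endothelial markers that were matched to at most 0.135 CPM.

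Of the 10 genes, 7 (FADS1, FADS2, SCD, FASN, ACSS2, ELOVL6 and SREBF1) stood higher in each of the 12 libraries with a splicing factor than in both Control libraries. The same held for 4.31% of the 21326 genes tested. Of the 9 genes tested, 0 stood below both Controls in all 12, as 3.87% of genes did. Because the 10 genes were chosen with earlier results of these data known, these shares of all genes are descriptions and not independent support. Averaged over the 5 overexpression groups, log2 fold changes against Control were 2.22 ± 0.45 (SE) for FADS2, 1.65 ± 0.45 for SCD, 1.44 ± 0.25 for FADS1, 1.12 ± 0.20 for FASN, 1.04 ± 0.24 for ELOVL6, 0.98 ± 0.27 for ACSS2 and 0.72 ± 0.19 for SREBF1. ACACA (0.31 ± 0.21) and ELOVL5 (-0.29 ± 0.12) did not share this shift, and ACLY had almost no counts. By quasi-likelihood F tests in edgeR, adjusted by Benjamini-Hochberg across the genes tested, none of the 9 genes tested passed an adjusted p of 0.05 for this average (0% of all genes called, smallest adjusted p of the 9 0.104), although 8 of the 9 had an unadjusted p under 0.05, as did 16% of all genes. DESeq2 called 7 of the 9, all higher, where it called 3.7% of all genes. This average was added as a comparison after the values per library had been seen. All 5 comparisons share the same 2 Control libraries, so their values are not independent of each other.

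The stretch of DNA just before each gene's start is shown for 3 genes that differ in the data: SCD and FADS1, which were higher in all 12 libraries with a factor, and ELOVL5, which was not. The sequences are from RefSeq (GRCh38.p14) and hold the 250 bases before the annotated start, 5′ to 3′ on the gene's own strand. Capitals mark matches, on either strand, to the CCAAT box (CCAAT or ATTGG), the GC box (GGGCGG or CCGCCC) and the E-box CACGTG.
SCD chr10:100346983-100347232 (+ strand): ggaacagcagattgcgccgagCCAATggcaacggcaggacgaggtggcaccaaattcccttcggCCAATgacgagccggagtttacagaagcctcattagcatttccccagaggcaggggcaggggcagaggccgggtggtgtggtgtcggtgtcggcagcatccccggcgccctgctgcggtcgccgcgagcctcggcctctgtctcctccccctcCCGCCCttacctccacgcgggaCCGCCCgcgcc
FADS1 chr11:61817004-61817253 (- strand): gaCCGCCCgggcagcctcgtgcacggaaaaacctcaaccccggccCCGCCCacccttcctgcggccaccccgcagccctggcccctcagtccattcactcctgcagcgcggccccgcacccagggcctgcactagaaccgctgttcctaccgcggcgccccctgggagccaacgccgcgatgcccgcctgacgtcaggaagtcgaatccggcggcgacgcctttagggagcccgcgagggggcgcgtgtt
ELOVL5 chr6:53348951-53349200 (- strand): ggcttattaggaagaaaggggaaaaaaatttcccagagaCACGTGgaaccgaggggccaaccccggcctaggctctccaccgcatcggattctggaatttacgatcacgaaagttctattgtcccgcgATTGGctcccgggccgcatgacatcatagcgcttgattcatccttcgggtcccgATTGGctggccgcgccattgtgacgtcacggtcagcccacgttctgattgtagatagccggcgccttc
SCD holds 2 CCAAT boxes and 2 GC boxes, FADS1 holds 2 GC boxes, and ELOVL5 holds 2 CCAAT boxes and an E-box 211 bases before its start. Of the 10 genes, 9 had an entry, with 14 start sites in all; FASN had none. A GC box lay in 11 of the 14 windows (8 of 9 genes), against 42.6% of 35116 windows of all genes, and a CCAAT box in 7 (5 of 9 genes), against 32%. The E-box lay in 1 window, that of ELOVL5, against 6.34%. TCACNCCAC, a short form of the sterol regulatory element that SREBP binds, searched on both strands, was in none of the 14 and in 0.883% of all windows. The windows are not all separate, since both ACLY windows overlap each other, as do both FADS2 windows. A gene with several start sites also has more chances to hold a box, so its count is not matched to the share per window. These are matches of letters in a short window, and no binding was measured.

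SREBF1 (chromosome 17) encodes the regulator of the pathway. Its level was 96.1 and 137 CPM in the Control libraries, 222, 245 and 174 in SRSF2-OE, 156 and 149.9 in SRSF4-OE, 219 and 221 in SRSF6-OE, 153, 195 and 236 in SRSF9-OE, and 180.2 and 222 in TRA2B-OE. All 12 libraries with a factor lay above both Control libraries, by a narrow margin in SRSF4-OE. Log2 fold changes ran from 0.41 ± 0.24 in SRSF4-OE to 0.93 ± 0.24 in SRSF6-OE, with edgeR adjusted p of 0.154 to 0.870. The value in SRSF4-OE was 0.24 without Control replicate 1-2 and 0.63 without Control replicate 3. DESeq2 called SREBF1 in SRSF6-OE (adjusted p = 0.0163) and in none of the other 4 groups. Exons of SREBF1 share 6.92% of their length with RAI1 on the opposite strand in GENCODE 29, and the sources used here do not say whether the counting used strand.

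ACSS2 (chromosome 20), which makes acetyl-CoA from acetate, stood at 38.7 and 47.9 CPM in the Control libraries, 61.8, 104 and 71.0 in SRSF2-OE, 80.1 and 80.0 in SRSF4-OE, 97.8 and 121 in SRSF6-OE, 58.7, 87.5 and 91.5 in SRSF9-OE, and 104 and 58.6 in TRA2B-OE. Each of these 12 libraries was above both Controls, and the level spread most within TRA2B-OE. The log2 fold change was 1.33 ± 0.33 in SRSF6-OE, where DESeq2 called it (adjusted p = 0.0111), and 0.88 to 0.90 in the other 4 groups. edgeR adjusted p ran from 0.152 to 0.870. The value in TRA2B-OE was 0.36 without TRA2B-OE replicate 1-2 and 1.37 without TRA2B-OE replicate 3. ACLY (chromosome 17), the enzyme that makes acetyl-CoA from citrate, was counted only 8 times in all, in 4 of the 14 libraries and at most 3 times in any of them. It did not pass the filter on low counts and no fold change is given, since no library exceeds what a count of 0 allows (3 counts). ACLY is active in most cell types, and these counts do not show that it was unexpressed here. SLC25A1, the mitochondrial citrate carrier, had 2 counts over all libraries and HSD17B8, a subunit of a mitochondrial fatty acid synthesis enzyme, had 0 (both named after their values were seen); the cause was not tested.

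FASN (chromosome 17), which assembles palmitate, stood at 282 and 384 CPM in the Control libraries, 1082, 1046 and 878 in SRSF2-OE, 537 and 676 in SRSF4-OE, 564 and 790.2 in SRSF6-OE, 478, 761 and 793 in SRSF9-OE, and 786 and 1082 in TRA2B-OE. No library with a factor overlapped Control, and all 3 SRSF2-OE libraries lay above all SRSF4-OE, SRSF6-OE and SRSF9-OE libraries. How many of all genes separate these groups likewise was not counted. In the edgeR F test for any difference among the 5 overexpression groups, FASN had an adjusted p of 0.424. The log2 fold change was largest in TRA2B-OE (1.49 ± 0.24, edgeR adjusted p = 0.0883) and SRSF2-OE (1.39 ± 0.24, 0.127), and smallest in SRSF9-OE (0.83 ± 0.24, 0.870). DESeq2 called FASN in 4 of the 5 comparisons, with adjusted p of 9.4e-06 in TRA2B-OE, 3.6e-05 in SRSF2-OE, 0.00448 in SRSF6-OE and 0.0284 in SRSF4-OE.

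ACACA (chromosome 17), the carboxylase that precedes FASN, behaved differently. Its level was 94.9 and 185 CPM in the Control libraries, 186, 200.4 and 151 in SRSF2-OE, 144 and 178 in SRSF4-OE, 136 and 240.2 in SRSF6-OE, 179, 284 and 211 in SRSF9-OE, and 147 and 164 in TRA2B-OE. Control replicate 1-2 was the lowest library and Control replicate 3 lay within the range of every other group except SRSF4-OE and TRA2B-OE, whose libraries it exceeded. No comparison gave an edgeR adjusted p under 0.350, and log2 fold changes were 0.14 ± 0.25 to 0.47 ± 0.25. In the 10 numeric-label libraries alone the difference was -0.06 in SRSF2-OE and -0.20 in TRA2B-OE, so its direction turned there.

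**Figure D1:**
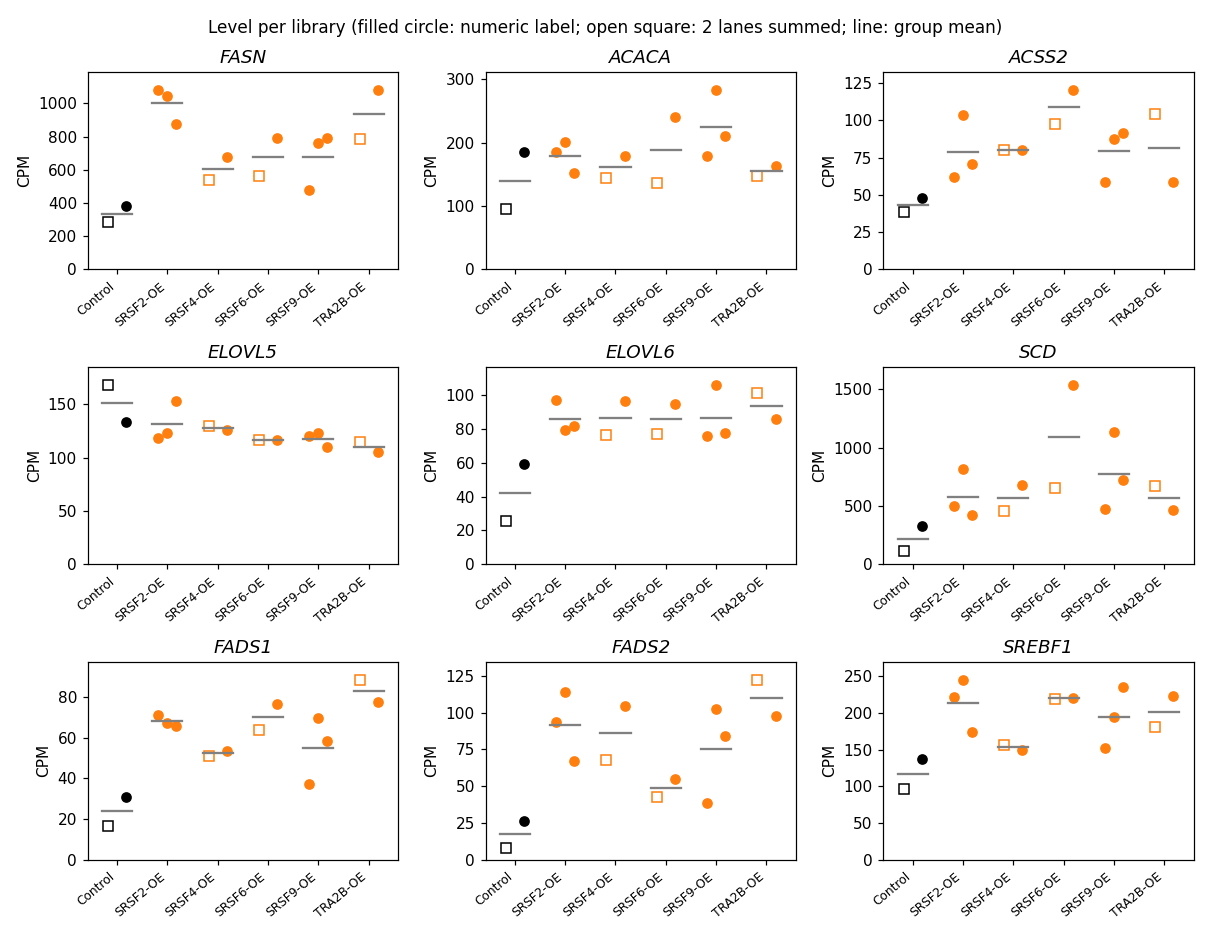
Level of each of the 9 genes in CPM (vertical axes, linear from 0) in the 14 libraries, by group. Circles are numeric-label libraries, open squares libraries of 2 summed lanes, and lines group means. In 7 of the 9 panels both Control points lie below the 12 others; ELOVL5 is highest in Control replicate 1-2 (168 CPM), with 1 SRSF2-OE library above the other Control library (134 CPM), and ACACA overlaps Control.

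SCD (chromosome 10), the stearoyl-CoA desaturase, had the widest span after FADS2, 13.8-fold between its lowest and highest library. It stood at 112 and 325 CPM in the Control libraries, 495, 819.7 and 426 in SRSF2-OE, 453 and 682 in SRSF4-OE, 652 and 1536 in SRSF6-OE, 472, 1137 and 719 in SRSF9-OE, and 667 and 462 in TRA2B-OE. Control replicate 1-2 was lowest and Control replicate 3 second lowest, and SRSF6-OE replicate 3 was the highest of all, also for ACSS2. The log2 fold change was 2.36 ± 0.54 in SRSF6-OE (edgeR adjusted p = 0.141; DESeq2 adjusted p = 0.00112) and 1.19 to 1.62 in the other 4, none of which DESeq2 called. In TRA2B-OE the size moved both ways with the library left out. The value of 1.62 ± 0.54 became 0.72 without TRA2B-OE replicate 1-2 and 2.35 without TRA2B-OE replicate 3. The Control libraries (112 and 325 CPM) belong to different label sets, which the model has as a term, and their part in this was not tested.

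FADS2 (chromosome 11), the desaturase of the opening step of polyunsaturated fatty acid synthesis, had the largest fold change of the 9 genes in 4 of the 5 comparisons; in SRSF6-OE that of SCD was larger. Its level was 8.10 and 26.5 CPM in the Control libraries, 94.0, 114 and 67.4 in SRSF2-OE, 67.6 and 105 in SRSF4-OE, 42.4 and 55.0 in SRSF6-OE, 38.5, 102 and 84.4 in SRSF9-OE, and 122 and 98.1 in TRA2B-OE. The lowest library with a factor, SRSF9-OE replicate 1, stood above the higher Control library. Log2 fold changes were 2.87 ± 0.53 in TRA2B-OE (edgeR adjusted p = 0.121), 2.42 ± 0.52 in SRSF4-OE (0.212), 2.25 ± 0.50 in SRSF2-OE (0.171), 1.96 ± 0.49 in SRSF9-OE (0.870) and 1.62 ± 0.51 in SRSF6-OE (0.177). DESeq2 called all of these except SRSF9-OE, with adjusted p of 2.2e-05 to 0.0308. These sizes depend on which Control library is used: the mean over groups was 1.67 without Control replicate 1-2 and 3.13 without Control replicate 3.

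FADS1, which acts later on the same route, is the neighbour of FADS2 on chromosome 11 and is read from the opposite strand. It stood at 16.6 and 30.8 CPM in the Control libraries, 71.3, 67.4 and 65.6 in SRSF2-OE, 51.2 and 53.6 in SRSF4-OE, 64.0 and 76.8 in SRSF6-OE, 37.1, 69.7 and 58.4 in SRSF9-OE, and 88.4 and 77.9 in TRA2B-OE. The 12 libraries with a factor again lay above both Controls, with the highest values in TRA2B-OE. The log2 fold change was 1.86 ± 0.30 in TRA2B-OE (edgeR adjusted p = 0.0883), 1.60 ± 0.30 in SRSF6-OE (0.112) and 1.12 to 1.43 in the others. DESeq2 called FADS1 in all groups except SRSF9-OE (0.288), with adjusted p of 2.2e-05 to 0.0201. Exons of FADS1 and FADS2 overlap over 4.79% and 4.44% of their lengths, so a small part of their reads could be shared if counting ignored strand.

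The balance of FADS2 and FADS1 was not the same in all groups. The ratio of FADS2 to FADS1 CPM was 0.487 and 0.860 in Control and 0.663 and 0.716 in SRSF6-OE, within the Control range. In the 10 libraries of the other 4 groups it was 1.03 to 1.95, above both Controls and both SRSF6-OE libraries. The ratio was looked at after the values were seen and was not tested.

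ELOVL6 (chromosome 4), which extends palmitate to stearate, stood at 25.3 and 59.4 CPM in the Control libraries, 96.8, 79.2 and 81.5 in SRSF2-OE, 76.4 and 96.6 in SRSF4-OE, 77.2 and 94.8 in SRSF6-OE, 75.8, 106 and 77.4 in SRSF9-OE, and 101 and 85.7 in TRA2B-OE. Again no library with a factor reached down to Control, and the 5 groups overlapped each other. Log2 fold changes were 0.89 ± 0.29 in SRSF2-OE to 1.24 ± 0.30 in TRA2B-OE, with edgeR adjusted p of 0.161 to 0.870. The mean over groups was 0.61 without Control replicate 1-2 and 1.70 without Control replicate 3. DESeq2 called it in TRA2B-OE (0.0163), SRSF6-OE (0.0246) and SRSF4-OE (0.0362). ELOVL5 (chromosome 6), the elongase of polyunsaturated chains, stood at 168 and 134 CPM in the Control libraries, 119, 124 and 153 in SRSF2-OE, 130.0 and 126 in SRSF4-OE, 116 and 116 in SRSF6-OE, 120.2, 123 and 109.7 in SRSF9-OE, and 115 and 106 in TRA2B-OE. It was the only one of the 9 genes that was highest in Control replicate 1-2, and its libraries lay below both Controls in SRSF4-OE, SRSF6-OE, SRSF9-OE and TRA2B-OE, as 27.2%, 24.4%, 17.6% and 18.2% of all genes did. Its log2 fold changes were small, -0.13 ± 0.16 to -0.45 ± 0.16, and neither tool called it.

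**Figure D2:**
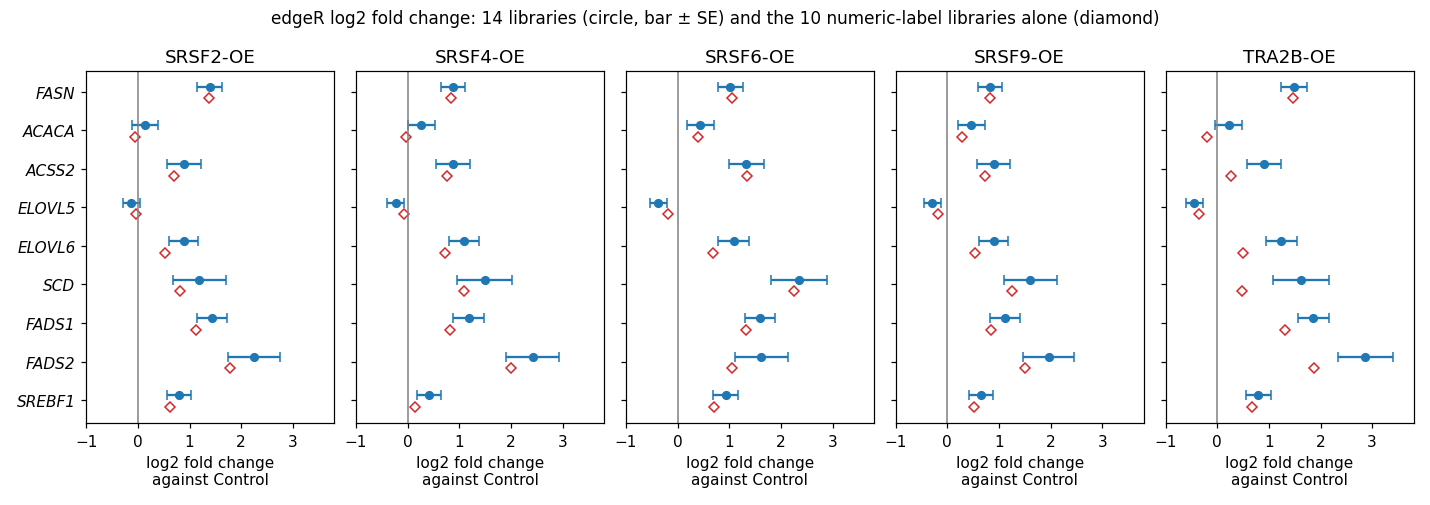
Log2 fold change against Control (horizontal axis) of the 9 genes tested, with a panel for each of the 5 overexpression groups. Circles with bars are edgeR estimates ± SE from 14 libraries, and diamonds the estimates from the 10 numeric-label libraries alone. FADS2 reaches 2.87 in TRA2B-OE and SCD 2.36 in SRSF6-OE, while the circles of ACACA and ELOVL5 stay between -0.45 and 0.47.

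In the single comparisons, edgeR called 0 of the 9 genes in every contrast with Control, where it called 0% of all genes in SRSF2-OE, SRSF4-OE and SRSF9-OE, 0.00469% in SRSF6-OE and 0.00938% in TRA2B-OE. Unadjusted p fell under 0.05 for 7 of 9 in SRSF2-OE (13.4% of all genes), 6 in SRSF4-OE (14.9%), 8 in SRSF6-OE (19.5%), 7 in SRSF9-OE (4.47%) and 8 in TRA2B-OE (12%). DESeq2, on the same libraries and terms, called 3 of 9 in SRSF2-OE (2.95% of all genes), 4 in SRSF4-OE (3.05%), 7 in SRSF6-OE (7.04%), 0 in SRSF9-OE (0.0704%) and 4 in TRA2B-OE (2.3%), all of them higher than Control. With the 18 samples entered as separate replicates, lanes included, edgeR called 5, 7, 8, 0 and 8 of the 9 in the same order, beside 1345, 3465, 4030, 5 and 2897 genes in all. That fit counts lanes of the same library as replicates, so its p-values tend to be too small and its calls carry no weight of their own. FASN, FADS1 and FADS2 were the 3 that DESeq2 called in SRSF2-OE and were also called in SRSF4-OE, SRSF6-OE and TRA2B-OE. Within each comparison, 7 of 9 genes had every library of the group above both Controls. Of all genes, 16.7% did so in SRSF2-OE, 25.3% in SRSF4-OE, 22.8% in SRSF6-OE, 16.5% in SRSF9-OE and 18.3% in TRA2B-OE. In the test for any difference among the 6 groups, edgeR called 0 of 9 (0.0422% of all genes; 6 of 9 at an unadjusted p under 0.05) and DESeq2 called FADS1, FADS2, SCD and FASN (8.04%).

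The 5 overexpression groups were also compared with each other on these genes. A test for any difference among them, added after the values were seen, called 0 of 9 with edgeR (0.0375% of all genes) and 0 of 9 with DESeq2 (4.28%). Only FASN had an unadjusted p under 0.05 (edgeR adjusted p = 0.424). A p above the threshold with 2 or 3 libraries a group does not show that the groups were alike. By mean CPM, FADS2 ran from 110.1 ± 17 (SD, n = 2) in TRA2B-OE through 91.7 ± 23.4 (n = 3) in SRSF2-OE, 86.2 ± 26.3 (n = 2) in SRSF4-OE and 75.0 ± 32.9 (n = 3) in SRSF9-OE to 48.7 ± 8.85 (n = 2) in SRSF6-OE. Neighbours among these 5 groups overlapped, and Control (17.3 ± 13, n = 2) came last. SCD had another order, with SRSF6-OE first (1094 ± 625, n = 2) and SRSF4-OE (568 ± 162, n = 2) and TRA2B-OE (564 ± 145, n = 2) last before Control (218 ± 151, n = 2), again with overlap between neighbours among the 5 groups. SRSF9-OE replicate 1 was the lowest of the 12 libraries for 4 genes, FADS1, FADS2, FASN and ELOVL6, and it also held the least SRSF9 of its group; the part of the factor's level in this was not tested.

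Control itself was uneven. Of the 9 genes, 8 were lowest in Control replicate 1-2, and for 7 of these 8 Control replicate 3 was second lowest. Summed over the 10 genes, the level was 841 CPM in Control replicate 1-2, 1329 in Control replicate 3 and 1611 to 3251 in the other 12 libraries. SCD and FASN made up 46.8% and 53.4% of that sum in the Control libraries and 58.4% to 71.6% elsewhere. The 2 Control libraries belong to different label sets. Among the 10 numeric-label libraries alone, with Control replicate 3 as the only Control, the mean log2 fold change over the 5 groups was 1.64 for FADS2, 1.18 for SCD, 1.11 for FASN, 1.09 for FADS1, 0.76 for ACSS2, 0.59 for ELOVL6 and 0.53 for SREBF1. These 7 means were smaller than with both Controls, and the value was above 0 for each of the 7 genes in each of the 5 groups. Within the library-ID set, SRSF2-OE and SRSF9-OE have no library and each of the other groups has 1, so no spread can be had there. A further fit left out replicate 3 of TRA2B-OE and replicate 1 of SRSF2-OE, whose labelled factor lay within the range of the other groups. Both SRSF6-OE libraries, in which SRSF6 overlapped Control, were kept. The means were then 2.32 for FADS2, 1.77 for SCD and 1.47 for FADS1.

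**Figure D3:**
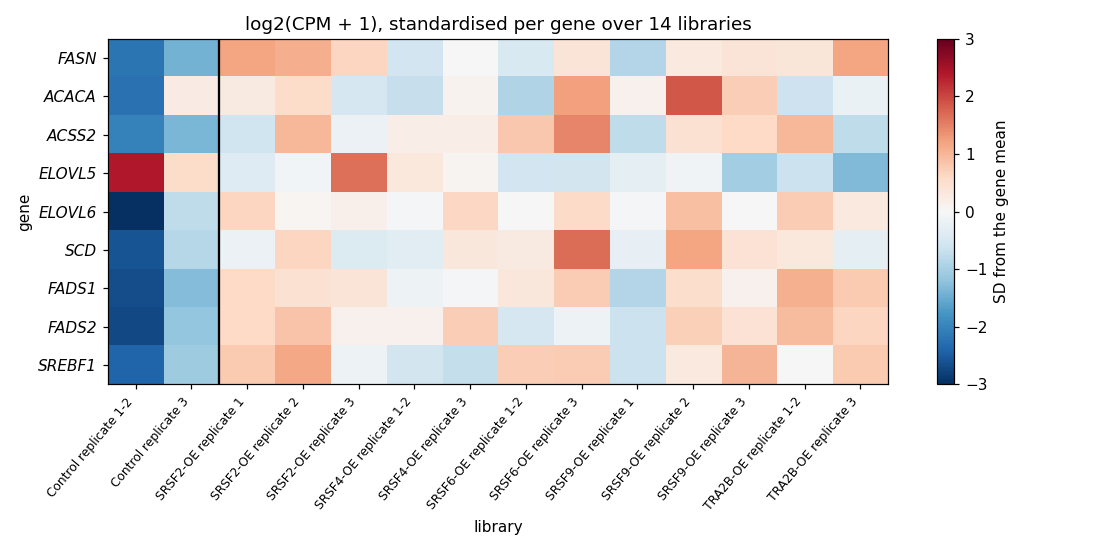
Standardised log2(CPM + 1) of the 9 genes (rows) in the 14 libraries (columns), as colour, each row centred on its mean and divided by its SD. Control replicate 1-2 is the lowest library in 8 rows and the highest in the ELOVL5 row, and Control replicate 3 is the second lowest in 7 rows.

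Other properties of the libraries moved alongside. All 10 mitosis and replication genes examined (MKI67, TOP2A, CCNB1, AURKA, TPX2, PLK1, MCM2, MCM5, PCNA and CDC45) had higher estimates than Control in each of the 5 comparisons, with a median log2 fold change of 1.16 for the mean over groups, and their mean log2(CPM + 1) was 4.10 and 5.23 in Control and 4.45 to 6.47 in the other groups. SRSF9-OE replicate 3 (4.45) and SRSF2-OE replicate 2 (4.74) lay between the Control libraries on this measure, and the lipogenic genes summed to 2380 and 2798 CPM in them. All other libraries with a factor lay above both Controls on this measure, and all 12 did so for the lipogenic sum. DESeq2 called 3 of the 10 mitosis and replication genes for the mean over groups and edgeR none. The part of these genes in the lipogenic levels was not tested. Among the 6 basal markers, the keratin KRT17 stood at 6904 and 9786 CPM in the Control libraries, 1603, 699 and 1502 in SRSF2-OE, 2234 and 3345 in SRSF4-OE, 3982 and 5874 in SRSF6-OE, 6568, 1978 and 732 in SRSF9-OE, and 2034 and 784 in TRA2B-OE, below both Controls in all 12 libraries, with a log2 fold change of -1.82 ± 0.56 for the mean over groups (edgeR adjusted p = 0.211; DESeq2 adjusted p = 0.263). KRT14, another basal keratin, had a value of 0.96 ± 0.49 and its libraries overlapped Control in SRSF9-OE and TRA2B-OE, and the other 4 basal markers had -0.23 to 0.40. The part of this difference in basal keratins in the lipogenic levels was not tested. In bulk RNA, more cells that express a gene and more of its RNA per cell cannot be told apart. Mitochondrial genes took 6.45% to 16.4% of counts, with Control at 12% and 7.64%, inside that range.

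Levels were also set side by side between genes per kilobase of exon, with all annotated exons of a gene merged (GENCODE 29). A merged length can exceed that of the transcripts present, so the order between genes depends in part on the annotation. In Control the order was led by ELOVL5 (35 and 44.1 CPM per kb), FASN (30.1 and 41.0) and SCD (20.8 and 60.6), whose ranges overlapped. In the 12 libraries with a factor, SCD (79.4 to 286, median 123) and FASN (51.0 to 116, median 84.2) stood above ELOVL5 (27.7 to 40.1, median 31.4). SREBF1 (18.7 to 30.5) overlapped ELOVL5, and ACSS2 (10.9 to 22.4), ACACA (10.4 to 21.8) and ELOVL6 (10.4 to 14.5) overlapped one another. FADS2 (3.49 to 11.1) and FADS1 (3.63 to 8.64) were the least abundant of the 9.

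The other genes of fatty acid metabolism were read from lists. For the mean over groups, the 9 lipogenic genes tested had a median log2 fold change of 1.04 with 8 of 9 higher, where all genes had a median of -0.02 with 48.5% higher. Other desaturases, elongases and their partners (11 of 14 tested, among them FADS3, SCD5, ELOVL1 and HSD17B12) had a median of 0.05 with 6 of 11 higher, and neither tool called one in any contrast with Control. Genes of fatty acid activation and glycerolipid synthesis (16 of 16 tested) had a median of -0.02 with 8 of 16 higher and no call by either tool. Genes of fatty acid oxidation (15 of 15 tested) had a median of 0.04 with 8 of 15 higher. Other enzymes of synthesis and of carbon and NADPH supply (11 of 15 tested) had a median of 0.40 with 8 of 11 higher. Genes that control SREBP and LXR (12 of 14 tested) had a median of -0.09 with 5 of 12 higher. edgeR called no gene of these lists in any of the contrasts; for the mean over groups, 1, 1, 1, 5 and 5 genes in the order given had an unadjusted p under 0.05, and DESeq2 called 0, 0, 1, 1 and 2.

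**Figure D4:**
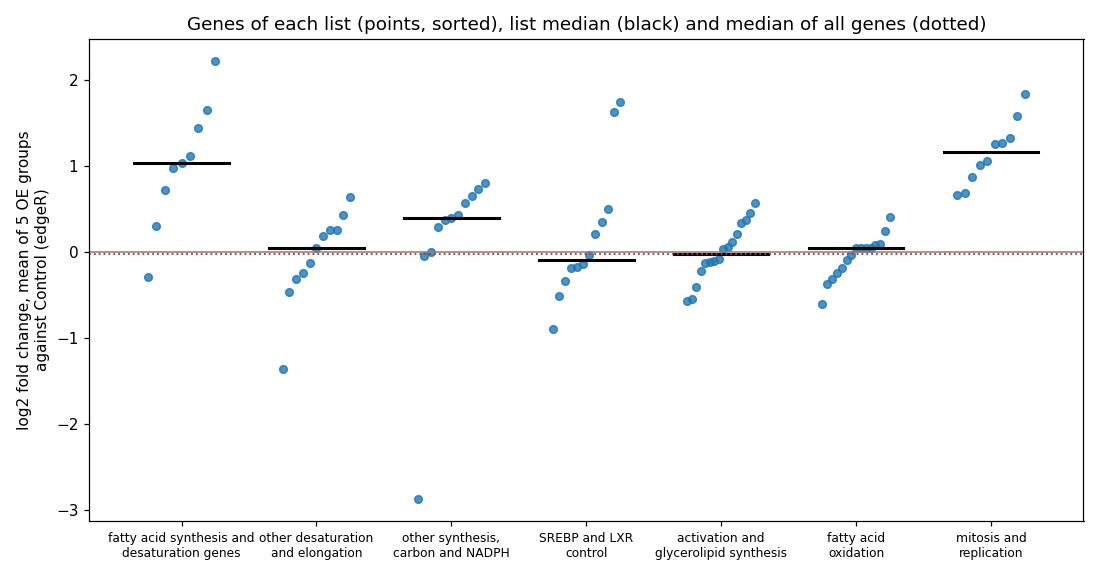
Log2 fold change for the mean of the 5 overexpression groups against Control (edgeR) (vertical axis) for each tested gene of the lipogenic set, of the 5 lists of fatty acid metabolism and of the mitosis and replication list. Points are genes, black lines list medians and the dotted line the median of all genes; the lipogenic genes have a median of 1.04, the mitosis list 1.16 and the other lists -0.09 to 0.40.

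DESeq2 called single genes in these lists. INSIG1, which holds SREBP back in the endoplasmic reticulum and is itself an SREBP target, was higher in SRSF6-OE (2.30 ± 0.47, DESeq2 adjusted p = 0.00031), TRA2B-OE (2.02 ± 0.47, 0.00321) and SRSF2-OE (1.58 ± 0.46, 0.0328). PGD, an NADPH-yielding enzyme of the pentose phosphate route, was called in TRA2B-OE (0.97 ± 0.26, DESeq2 adjusted p = 0.0469), and ACACB, the acetyl-CoA carboxylase at the mitochondrial surface, in SRSF2-OE (1.47 ± 0.31, 0.00265). Among oxidation genes, CPT1A, which admits fatty acids to mitochondria, was higher in SRSF6-OE (1.03 ± 0.24, DESeq2 adjusted p = 0.00917). PPARA, a transcription factor of oxidation genes, was lower in SRSF2-OE (-0.86 ± 0.19, DESeq2 adjusted p = 0.0115), SRSF4-OE (-0.79 ± 0.20, 0.0347) and TRA2B-OE (-0.76 ± 0.20, 0.0466).

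Outside these lists, the 5 genes whose log2(CPM + 1) followed the mean standardised level of the lipogenic genes most closely over the 14 libraries were DHCR7 (Pearson r = 0.961, Spearman rho = 0.824), MSMO1 (0.938, 0.921), THOP1 (0.937, 0.754), ATP5F1C (0.934, 0.846) and MFSD3 (0.931, 0.736). DHCR7 and MSMO1 are enzymes of cholesterol synthesis. These coefficients pick the top of all genes and include the low Control libraries, so they are descriptions without a test; over the 12 libraries with a factor alone, r was 0.823, 0.851, 0.707, 0.798 and 0.700 in the same order.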

How the data were processed

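RNA from MCF-10A 3D cultures was made into stranded mRNA libraries, per the labels' protocols. The authors deposited raw counts per gene, whole numbers that sum to 36426438 to 70515965 per sample. The submitters' processing notes name GRCh37, Trimmomatic 0.36, STAR 2.5.1b, featureCounts and Subread; the strand setting of the counting is not stated there. Symbols were found for 55528 of 60252 gene IDs; the 4724 without one took 0.308% to 0.683% of counts per library.

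Groups and replicate numbers came from the labels. Lanes of 1 library ID were summed, giving 14 libraries: the 4 lane pairs differed by a mean chi-square per gene of 3.82 to 9.06, against 58.8 to 318 for the 14 other pairs within groups. The labels do not tie replicates to separate cultures; p-values then reflect only library-to-library spread, which may be technical.

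In R 4.3.3, edgeR 4.0.16 (with limma 3.58.1) fitted TMM-normalised counts of 21326 genes that passed filterByExpr (minimum count 10) with group and label set as terms, over all 6 groups (7 residual degrees of freedom). Adjusted p are Benjamini-Hochberg values over all genes tested, called under 0.05; SE is the log2 fold change divided by the root of F. DESeq2 1.42.0 was an alternative with the same terms; its adjusted p that were NA stayed NA. The other alternatives were RLE factors, no filter, no label set, the 10 numeric-label libraries, the 2 groups alone, 18 separate samples, the replicate block and leaving out each library. The scripts were tested on simulated data. CPM use TMM-scaled library totals.

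The 10 genes and all lists were chosen with earlier results of these data known. From each list, the text names up to 3 genes with the smallest DESeq2 adjusted p under 0.05, since edgeR called none (a few such genes are not reported here); the genes most alike have a mean of at least 3 CPM and a symbol. Exon lengths and overlaps are from GENCODE 29 (GRCh38), matched by gene ID; the files use GRCh37, so the only coordinates given are those of the RefSeq promoter windows, in their own build.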

Additional observations from a re-analysis of the deposited data

How the results depend on the processing

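Calls depended on the tool and on how lanes were counted. Against 0 of 9 genes with edgeR in each comparison, DESeq2 called 3 in SRSF2-OE, 4 in SRSF4-OE, 7 in SRSF6-OE, 4 in TRA2B-OE, 4 for any difference among the 6 groups and 7 for the mean over groups. With 18 separate samples the counts were 5 in SRSF2-OE (1345 of 21026 genes in all), 7 in SRSF4-OE (3465), 8 in SRSF6-OE (4030) and 8 in TRA2B-OE (2897). They were 8 among the 6 groups (3725), 8 for the mean (3832) and 1 among the 5 overexpression groups (1001). The replicate block on the 18 samples gave 7 in SRSF2-OE (3874 of 21026 genes in all), 6 in SRSF4-OE (2217), 8 in SRSF6-OE (2623) and 2 in SRSF9-OE (26). It gave 8 in TRA2B-OE (1823), 7 among the 6 groups (3398) and 8 for the mean (4335). Both of these fits count lanes of the same library as replicates, so their p-values tend to be too small. Same-numbered samples of different groups had correlations of their deviations of -0.521 to 0.547 (median 0.0776). Samples with different numbers had -0.687 to 0.619 (median -0.0342). As numbers 1 and 2 are lanes of the same library in 4 groups, this cannot decide whether the numbers pair samples. Fitting the 2 groups alone called 6 in SRSF4-OE (2504 of 20565 genes in all) and 1 in SRSF6-OE (156 of 20971). No filter called 1 in TRA2B-OE (12 of 39600 genes in all). Leaving out each library in turn called 0 of 9 in each comparison, with smallest adjusted p of 0.0582 (SRSF6-OE) to 0.402 (SRSF9-OE). Where this left a group with 1 library, that library was assumed to vary like the others. The number of all genes called by edgeR also moved, to at most 69 (SRSF2-OE), 24 (SRSF4-OE), 48 (SRSF6-OE), 2 (SRSF9-OE) and 14 (TRA2B-OE) with 1 library left out.

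Of 1233 alternative log2 fold changes of the 9 genes over 23 settings, 1226 kept their direction, 108 of them newly past the threshold, and 7 reversed, all of ACACA. Most of the 108 came from the fits on 18 samples, which count lanes as replicates, and most of the rest from DESeq2. The settings reuse the same libraries and the same Controls, so these counts are not separate evidence. In the numeric-label libraries ACACA was -0.057 in SRSF2-OE, -0.037 in SRSF4-OE and -0.20 in TRA2B-OE, and with the 2 groups alone -0.060 in SRSF2-OE. With 1 library left out ACACA ranged from -0.042 (without Control replicate 1-2) to 0.49 in SRSF2-OE and from -0.027 (without TRA2B-OE replicate 1-2) to 0.50 in TRA2B-OE, both highest without Control replicate 3. The cause was not tested.

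Some sizes moved by over 1.5-fold. Without Control replicate 3 the value in SRSF2-OE was 1.94 for SCD, and in SRSF9-OE 2.99 for FADS2; without Control replicate 1-2 it was 1.0 for FADS2 in SRSF6-OE. ELOVL6 in TRA2B-OE was 0.82 without TRA2B-OE replicate 1-2. In the numeric-label libraries, which drop 4 libraries at once, TRA2B-OE gave 1.87 for FADS2, 0.49 for SCD, 0.51 for ELOVL6 and 0.27 for ACSS2, and SRSF4-OE 0.14 for SREBF1.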

Other observations

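ACSS1, the mitochondrial acetyl-CoA synthetase, ran opposite to its cytosolic counterpart ACSS2; it was singled out after its values were seen. ACSS1 stood at 10.1 and 14.9 CPM in the Control libraries, 1.31, 0.277 and 2.65 in SRSF2-OE, 2.73 and 0.750 in SRSF4-OE, 4.85 and 0.495 in SRSF6-OE, 4.05, 0.796 and 0.767 in SRSF9-OE, and 1.49 and 1.52 in TRA2B-OE. All 12 libraries with a splicing factor lay below both Control libraries, as 3.87% of all genes did. The log2 fold change for the mean over groups was -2.87 ± 0.70 (SE; edgeR adjusted p = 0.162, DESeq2 adjusted p = 0.0165), and -3.24 in SRSF4-OE to -2.39 in SRSF9-OE.

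FABP4, a fatty acid carrier of adipocytes and endothelium, stood at 15.0 CPM in SRSF2-OE replicate 3 and at 2.41 and 1.39 CPM in the other SRSF2-OE libraries, against 0.191 and 0.883 CPM in Control. ADIPOQ had 0 counts in that library as in all others.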
